A study of Mus musculus with 16 samples.

Results

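The genes described here are 33 genes whose loss in humans causes a lysosomal storage disorder or a leukodystrophy and for which cells derived from transplanted bone marrow (BM) may supply the missing enzyme. They were taken by symbol from a list, and each of the 33 matched 1 of the 24411 gene rows of the count table. All 33 had at least 1 read in every library and entered every test. Of the 33 proteins, 26 are soluble and act inside the lysosome or are secreted, and 7 (encoded by Npc1, Hgsnat, Cln3, Cln8, Mfsd8, Ctns and Mcoln1) sit in a membrane.

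Lysosomes break down lipids, glycosaminoglycans, glycoproteins and glycogen with acid hydrolases, and the loss of 1 hydrolase lets its substrate pile up. Many soluble lysosomal enzymes carry a mannose 6-phosphate tag, and a share of them is secreted and taken up by neighbouring cells, which is the basis for treating such disorders with BM or hematopoietic stem cell grafts that seed the brain with macrophages. A protein held in a membrane cannot be handed over in this way. The question for these data is whether the graft-derived brain macrophages carry the messenger RNAs of these genes at the level of the microglia they live beside, with and without an inflammatory challenge.

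The mice were BM chimeras. WT C57BL/6J hosts (CD45.2) were lethally irradiated with 950 cGy and received congenic BM with CD45.1 alleles. Engrafted cells (CD45.1, low) and host microglia (CD45.2, low) were sorted from the brain of the same animal as CD11b+ cells outside the Ly6C/G gate. Mice 5 to 8 were unchallenged controls. Mice 1 to 4 received 1 intraperitoneal dose of lipopolysaccharide (LPS), the endotoxin of Gram-negative bacteria, at 2.5 mg/kg and were killed 12 h later. Each of the 4 groups thus holds 4 libraries. The challenge followed 9 months after transplantation, although the labels name 3.5 or 9 months for all samples alike. All host microglia had been irradiated and no library came from a non-irradiated mouse. Irradiation and origin therefore cannot be told apart in any comparison of the populations. LPS and control mice were different animals.

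The libraries held between 395283 and 1203597 reads on genes, and 3 reads corresponded to between 2.39 and 8.41 CPM, the counts of a gene scaled to a common library size. The engrafted library of mouse 4 (LPS) was the shallowest and correlated least with its group (mean Pearson r over genes of 0.879, up to 0.962 for other libraries). Microglia markers (P2ry12, Tmem119, Sall1, Slc2a5 and Siglech) summed to between 1994 and 2558 CPM in the engrafted cells and between 6329 and 8099 CPM in host microglia without LPS, and the markers of engrafted macrophages (Ms4a7, Ccr2, Apoe, Runx3 and Clec12a) to between 57034 and 79817 CPM and between 3859 and 7458 CPM. After LPS the same lists summed to between 1042 and 1369 CPM and between 44538 and 90156 CPM in engrafted cells. In host microglia they summed to between 1759 and 2167 CPM and between 2775 and 4472 CPM. The ranges of the populations did not overlap in either condition. The study had named most of these genes as differing between these populations without LPS, so this is no independent check. Apoe made up most of the second list, averaging 68904 CPM in engrafted cells without LPS. Summed markers of other cell types also differed between the populations. The 5 neutrophil markers summed to between 179 and 791 CPM in engrafted cells without LPS. In host microglia they summed to between 0 and 2.39 CPM. In these engrafted cells S100a8, S100a9 and Retnlg averaged 132, 237 and 24.6 CPM, while Ly6g averaged 0.252 CPM and Cxcr2 was at 0. After LPS, the 5 monocyte markers (Ly6c2, Plac8, Chil3, Ace and Treml4) summed to between 866 and 1837 CPM in engrafted cells, with none at 0, and to between 8.03 and 27.8 CPM in host microglia. Without LPS this list stood at between 69.1 and 110 CPM in engrafted cells. The markers of both macrophage populations (Csf1r, Cx3cr1, Aif1, Itgam and Fcrls) moved from between 12058 and 12934 CPM to between 4966 and 5791 CPM with LPS in engrafted cells, and from between 13084 and 14656 CPM to between 7920 and 9003 CPM in host microglia. The red blood cell list varied widely between libraries, up to 6128 CPM in the engrafted LPS group and 4478 CPM in the engrafted control group. The astrocyte list summed to between 180 and 264 CPM in host microglia without LPS and to between 11.5 and 23.6 CPM in engrafted cells. Of the host sum Slc1a3 gave 206 CPM on average, while Gfap averaged 0.366 CPM in these host libraries and was at 0 in the engrafted ones. The part of these markers in the differences between populations, in the changes with LPS and in the interactions given next was not tested. In sorted populations, fewer cells of a type and less RNA per cell cannot be told apart.

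Many lysosomal genes carry an E-box motif near their start that is recognised by TFEB and related factors, the so-called CLEAR element. RefSeq promoter windows of GRCm38.p6, from 250 bases before to 50 bases after the start, were held for 27 of the 33 genes. The motif TCACGTG, read on both strands (CACGTGA on the reverse), was in 8 of the 27 windows (29.6%) and in 4.29% of the windows of 27025 genes. The plain E-box CACGTG, which lies inside it, was in the same 8 windows, and in 8.09% of all windows. The full palindrome TCACGTGA was in 3 of the 27 (11.1%), those of Gla, Cln3 and Mcoln1, and in 1.12% of all windows. These 3 windows each held 2 matches of TCACGTG. The stretch shown for Gla holds the palindrome, while the palindromes of Cln3 and Mcoln1 lie outside the stretches shown. The 30 bases around the first match are shown for each of the 8 genes because the element is known for lysosomal genes. Of these 8 genes 6 fell with LPS in at least 1 population, as did 12 of the 19 members whose window held no match. Those 12 include Galc, which rose in host microglia. Falls in at least 1 population were not counted over all genes, of which 19.3% fell in engrafted cells and 20.5% in host microglia. Capitals mark the motif, and each line reads 5′ to 3′ along the gene's strand.
Arsa (chr15:89477423-89477452, minus strand): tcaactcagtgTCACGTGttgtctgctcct
Gla (chrX:134601215-134601244, minus strand): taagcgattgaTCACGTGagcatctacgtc
Glb1 (chr9:114401018-114401047, plus strand): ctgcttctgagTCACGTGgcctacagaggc
Naglu (chr11:101070009-101070038, plus strand): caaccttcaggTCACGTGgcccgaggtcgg
Sgsh (chr11:119355521-119355550, minus strand): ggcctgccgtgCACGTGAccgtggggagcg
Gaa (chr11:119267811-119267840, plus strand): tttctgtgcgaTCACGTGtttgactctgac
Cln3 (chr7:126583367-126583396, minus strand): caaccctcaagCACGTGAtggaaggctcac
Mcoln1 (chr8:3500436-3500465, plus strand): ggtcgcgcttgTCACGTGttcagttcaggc

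The first match began between 17 (Arsa) and 228 (Gla) bases before the start. Sgsh and Galc were the members more than 2-fold apart between the populations, and the 250 bases before their starts are shown because Sgsh has the motif and the window of Galc has no match. A match is a description of these letters, not evidence of binding, and no match says nothing about the factor.
Sgsh (chr11:119355511-119355760, minus strand): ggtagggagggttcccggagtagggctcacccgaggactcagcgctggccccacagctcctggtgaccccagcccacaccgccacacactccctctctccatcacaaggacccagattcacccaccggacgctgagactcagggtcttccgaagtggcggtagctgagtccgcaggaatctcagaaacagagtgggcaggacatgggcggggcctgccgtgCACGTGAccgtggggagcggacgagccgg
Galc (chr12:98259460-98259709, minus strand): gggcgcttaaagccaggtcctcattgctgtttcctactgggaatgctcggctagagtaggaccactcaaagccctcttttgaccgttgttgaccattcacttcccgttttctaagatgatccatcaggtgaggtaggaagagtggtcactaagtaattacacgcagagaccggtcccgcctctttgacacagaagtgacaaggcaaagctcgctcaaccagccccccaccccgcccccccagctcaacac

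Without LPS, 2 members stood more than 2-fold apart between the populations. Galc was 3.60-fold and Sgsh 2.92-fold higher in engrafted cells. Psap, Asah1 and Lipa were higher by less than 2-fold, and Tpp1, Naglu and Man2b1 were lower by less than 2-fold. In all, 8 of 33 members passed the test (edgeR quasi-likelihood test, Benjamini-Hochberg adjusted p below 0.05 over all 8042 genes tested), 5 higher and 3 lower, where 27.3% of all genes passed, 13.6% higher and 13.7% lower. With the 2-fold threshold added, 2 of 33 were called, where 11.0% of all genes were. The 95% interval of the log2 fold change lay wholly inside 2-fold for 28 of 33 members, for 67.0% of all genes, and for 75.0% of the genes with a mean of at least 20 reads. The median log2 fold change was -0.05 over the members and 0.02 over all genes tested. The number lower was 5 without the host library of mouse 8.

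After LPS, Sgsh alone among the members stood more than 2-fold apart. It was 2.63-fold higher in engrafted cells, Cln8 was 1.63-fold higher, and Hexa, Ids, Naglu, Man2b1 and Ppt1 were lower at between 51.9% (Ids) and 62.1% (Ppt1) of the host level. Thus 7 of 33 passed, 2 higher and 5 lower, where 17.1% of 7843 genes passed, 9.52% higher and 7.62% lower. The 1 member called compares with 11.1% of all genes. The interval lay inside 2-fold for 24 of 33 members and for 61.3% of all genes (68.3% of those with a mean of at least 20 reads), and the median was -0.11 over the members and -0.01 over all genes. The 5 lower members were sensitive to single libraries. They became 1 without the engrafted library of mouse 1, 3 without the engrafted library of mouse 2 or the host library of mouse 3 or mouse 4, and 9 without the engrafted library of mouse 4. The 2 higher members became 0 without the engrafted library of mouse 3, and 1 without the host library of mouse 1, 3 or 4. Scaling to library totals, which moved the median of all genes by -0.15, gave 10 lower and 1 higher.

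Naglu, Man2b1 and Sgsh passed in both comparisons, the first pair lower and Sgsh higher in engrafted cells each time, where 9.98% of the 7352 genes tested in both comparisons passed in both. For 21 of the 33 members neither comparison passed. That share was not counted over all genes, of which 27.3% passed without LPS and 17.1% after LPS. Among the 7 membrane proteins none passed without LPS, and the interval lay inside 2-fold for all 7, against 67.0% of all genes. After LPS, Cln8 passed and the interval lay inside 2-fold for 5 of the 7, against 61.3% of all genes.

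**Figure D1:**
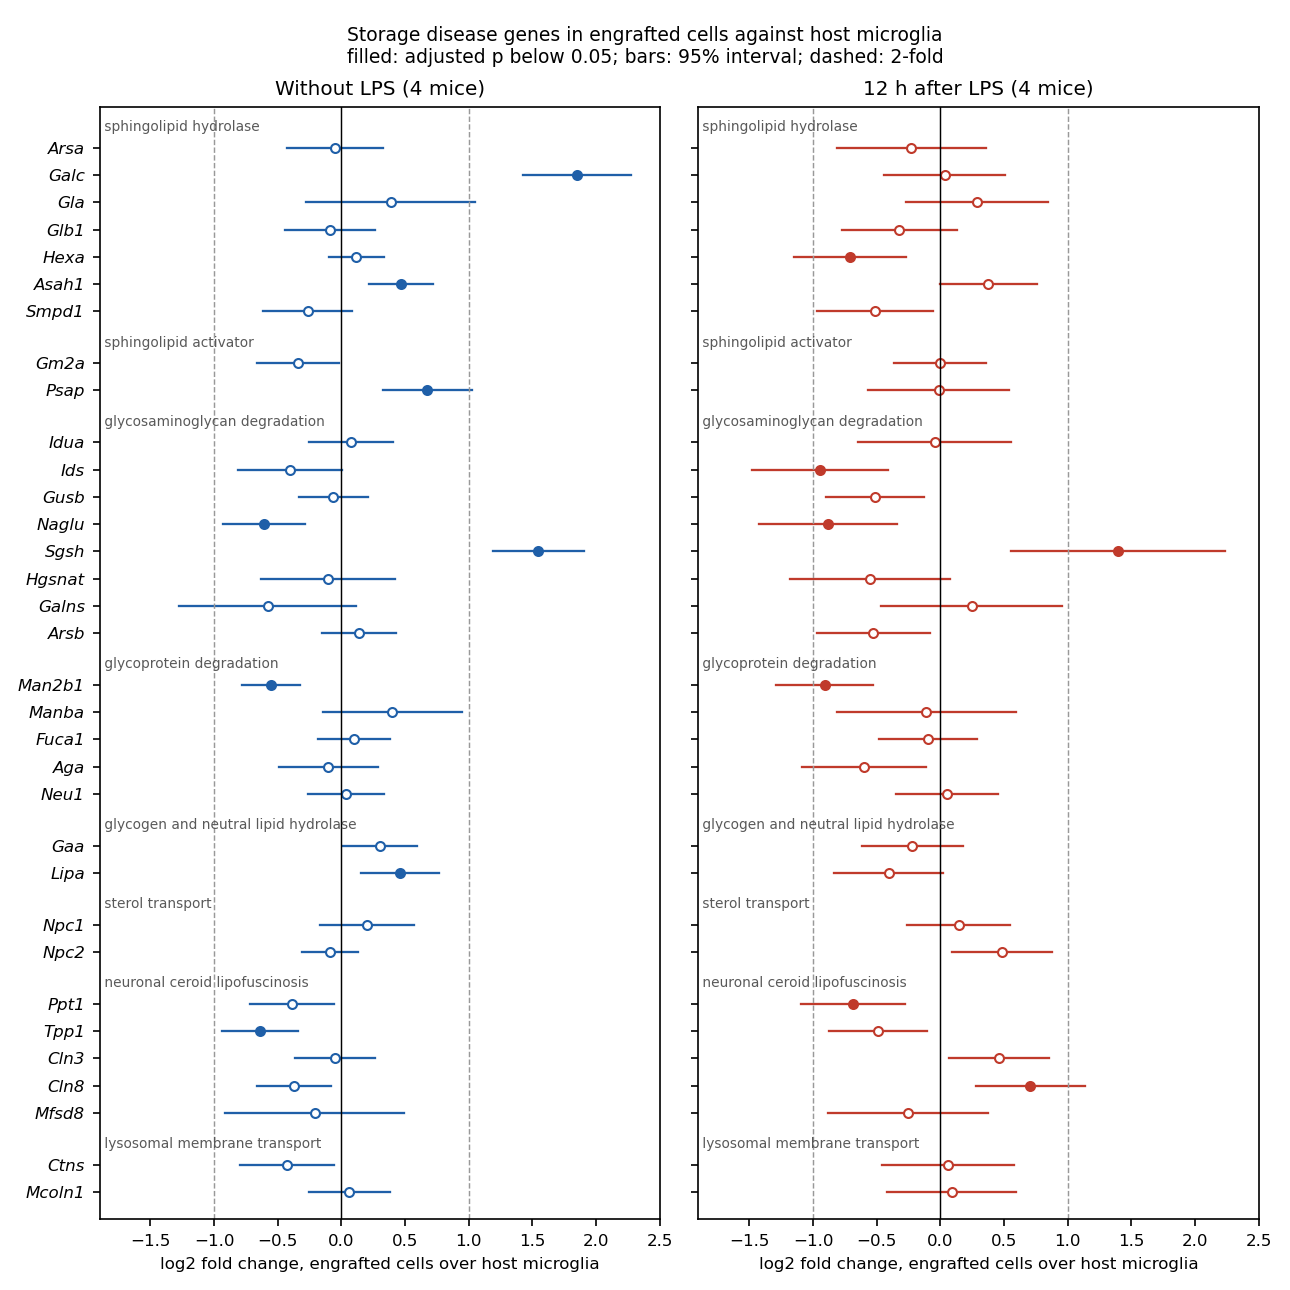
Log2 fold change of engrafted cells over host microglia for the 33 genes, grouped by role, without LPS (left) and 12 h after LPS (right), with 95% intervals; filled points have an adjusted p below 0.05 and dashed lines mark 2-fold. Galc and Sgsh lie to the right of the 2-fold line without LPS, and after LPS Sgsh remains beyond it while Galc lies at 0.04.

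Each mouse gave both populations, so the level in engrafted cells can be read as a percentage of the host level of the same brain. Without LPS, Galc stood at between 230% and 477% and Sgsh at between 248% and 331% in the 4 mice. Asah1 and Psap were also higher in engrafted cells of 4 of 4 mice. Tpp1, Naglu, Man2b1, Cln8, Ids, Ctns, Npc2, Gm2a and Galns were lower in 4 of 4 mice. After LPS, Cln8 stood at between 145% and 205%, and Cln3, Npc2, Asah1 and Sgsh were also higher in 4 of 4 mice. Glb1, Hexa, Smpd1, Ids, Gusb, Naglu, Arsb, Man2b1, Aga, Gaa, Lipa, Ppt1, Tpp1 and Mfsd8 were lower in 4 of 4 mice, with Hexa at between 35.5% and 79.9%. Of the lower genes, only Tpp1, Naglu and Man2b1 passed the test without LPS. Only Hexa, Ids, Naglu, Man2b1 and Ppt1 did so after LPS. The direction within mice was not counted over all genes, so no share of all genes stands beside these lists.

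**Figure D2:**
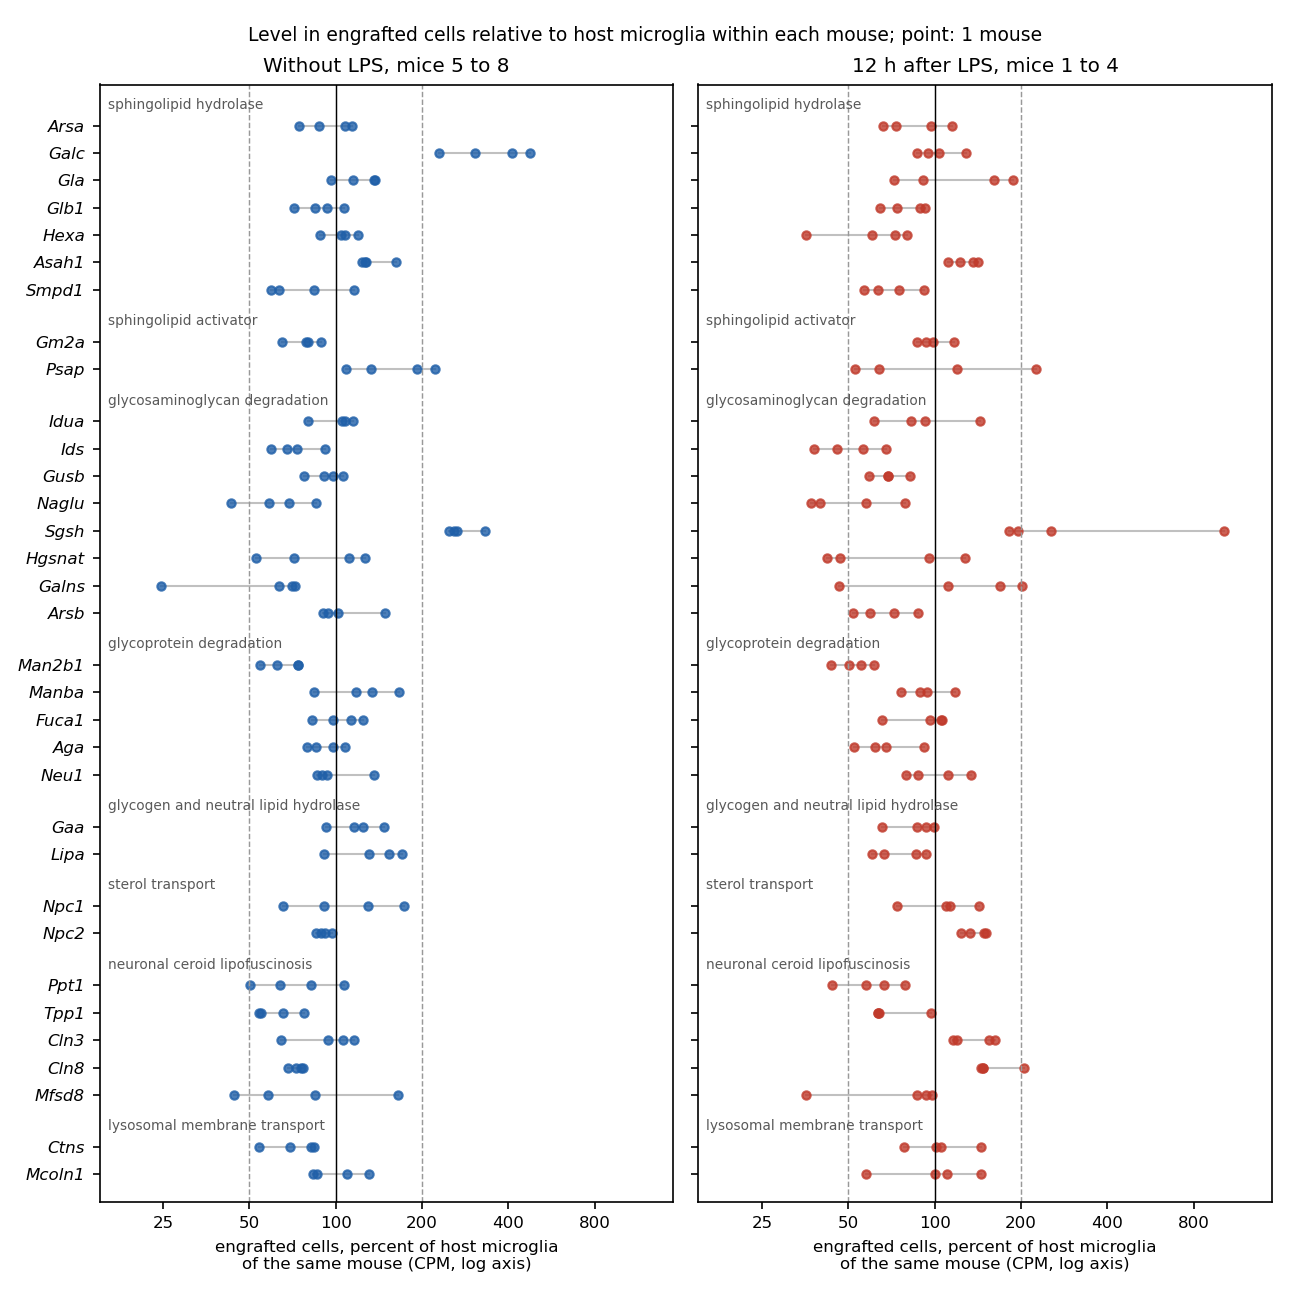
CPM of each gene in engrafted cells as a percentage of host microglia of the same mouse, on a log axis, without LPS (left, mice 5 to 8) and after LPS (right, mice 1 to 4); each point is 1 mouse and dashed lines mark 50% and 200%. Galc and Sgsh lie above 200% in every mouse without LPS, and the 1024% point of Sgsh after LPS is mouse 1, whose host library held 2 Sgsh reads.

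LPS lowered more of these genes than it raised, in both populations. In engrafted cells, 18 of 33 members fell and 3 rose, where 19.3% of 7609 genes fell and 19.4% rose. In host microglia, 16 fell and 3 rose, where 20.5% of 8238 genes fell and 19.2% rose. All genes that passed made up 38.7% in engrafted cells and 39.7% in host microglia. Falls of more than 2-fold were called for 9 members in engrafted cells and 8 in host microglia, against 11.3% and 10.4% of all genes. The median log2 change was -0.71 in engrafted cells and -0.34 in host microglia, where all genes had -0.01 and 0.01. The changes had a negative sign for 25 of 33 members in each population. The summed level of the 33 genes was 7370 ± 93.7 CPM (SD, n = 4) for engrafted cells and 7771 ± 419 CPM in host microglia without LPS. It was 5110 ± 289 CPM and 5719 ± 127 CPM after LPS, and the libraries with and without LPS did not overlap in either population. Abundant genes weigh most in this sum. With LPS, mean Hexa went from 1593 to 414 CPM in engrafted cells and from 1526 to 687 CPM in host microglia. Mean Man2b1 went from 855 to 411 CPM and from 1305 to 784 CPM, while mean Npc2 went from 852 to 1408 CPM and from 941 to 1024.5 CPM.

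The members that fell in both populations numbered 13 (Arsa, Glb1, Hexa, Asah1, Smpd1, Idua, Naglu, Sgsh, Arsb, Man2b1, Fuca1, Lipa and Mcoln1), and Gla and Neu1 rose in both. Of the 7286 genes tested in both populations, 12.4% fell and 11.2% rose in both. Psap, Ids, Aga and Gaa passed as lower in engrafted cells only, and Tpp1, Cln8 and Ctns in host microglia only, which among these 7 was a tested difference for Cln8 alone. Npc2 passed as higher in engrafted cells, by 1.61-fold. Galc fell in engrafted cells and rose in host microglia. The remaining 9 (Gm2a, Gusb, Hgsnat, Galns, Manba, Npc1, Ppt1, Cln3 and Mfsd8) did not pass in either population. The 3 members raised in host microglia became 1 without the host library of mouse 6.

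**Figure D3:**
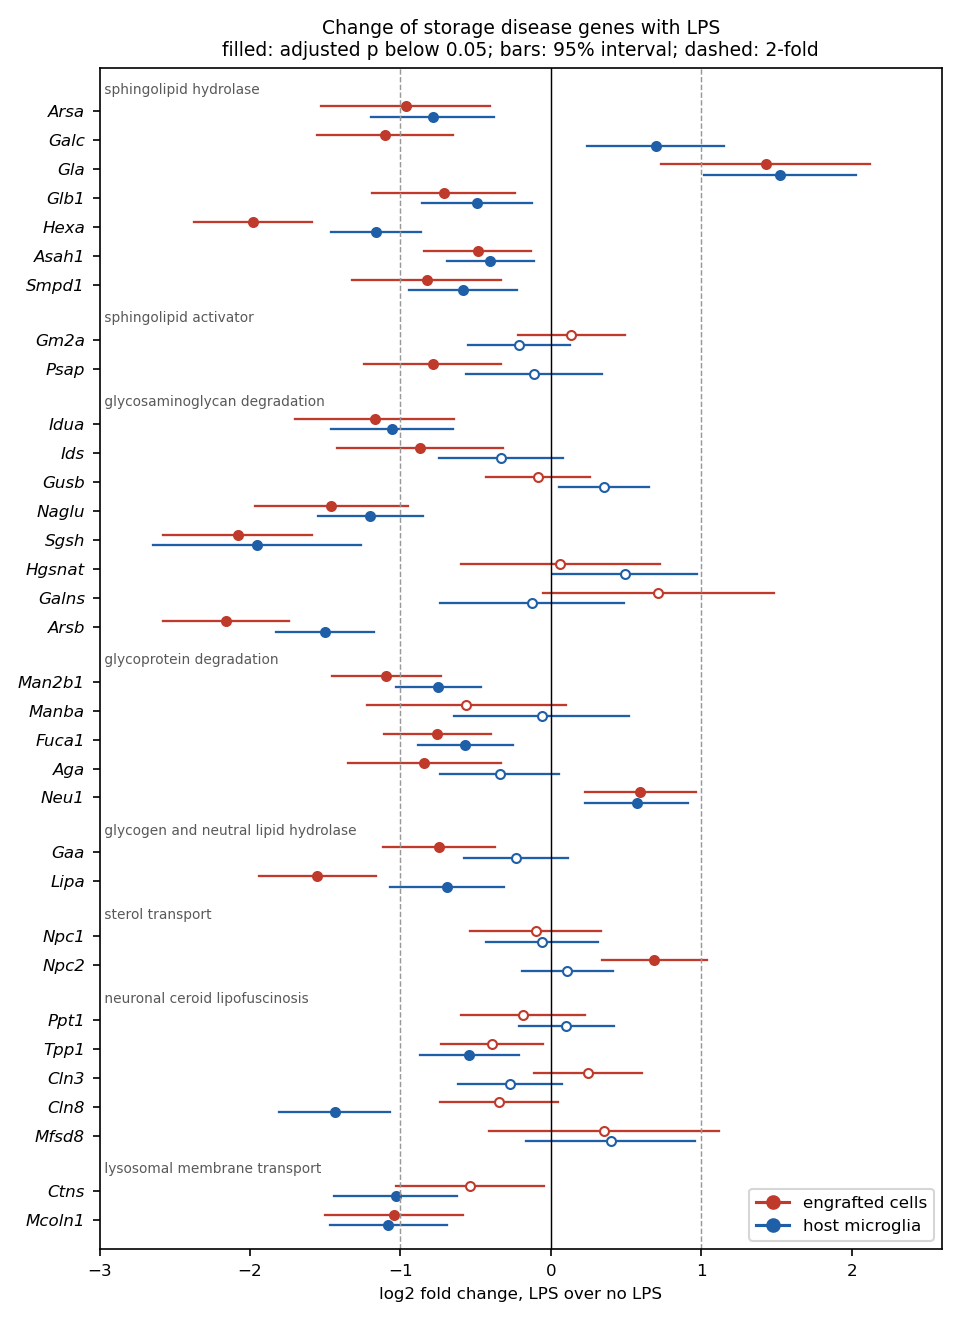
Log2 fold change with LPS for the 33 genes in engrafted cells (red) and host microglia (blue), with 95% intervals; filled points have an adjusted p below 0.05 and dashed lines mark 2-fold. Most points lie left of 0, Gla and Neu1 lie right of 0 in both populations, and for Galc the populations lie on opposite sides.

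The difference between the populations in the response to LPS was tested as an interaction across the 16 libraries. It passed for 4 members, where 5.88% of 8847 genes passed, 2.97% higher and 2.90% lower. The response of engrafted cells was lower than that of host microglia for Galc, Lipa and Hexa and higher for Cln8. The count of 3 lower members became 1 in 8 of the 16 fits that left out 1 library (engrafted mouse 1, host mouse 3, host mouse 4, engrafted and host mice 6 and 7, and engrafted mouse 8), where Galc remained. The 1 higher member became 2 without the host library of mouse 2, where Npc2 passed as well (0.69, adjusted p = 0.0413).

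Galc encodes galactosylceramidase, which degrades a myelin lipid and is lost in globoid cell leukodystrophy (Krabbe disease). The gene lies at chr12:99440510-99497669 of NCBI37 (mm9), the build of the counts, on the minus strand. In engrafted cells of mice 5 to 8 Galc measured 115, 92.7, 80.3 and 77.4 CPM, and in host microglia of the same mice 27.8, 19.4, 26.3 and 33.7 CPM. The lowest engrafted library thus stood well above the highest host library, with a log2 fold change of 1.85 (SE 0.21, adjusted p = 5.59e-08). After LPS the engrafted libraries of mice 1 to 4 measured 43.6, 35.4, 48.1 and 53.3 CPM and the host libraries 45.9, 40.9, 37.4 and 51.5 CPM. These ranges overlapped, and the log2 fold change was 0.04 with an interval from -0.44 to 0.51. Galc changed by -1.10 (SE 0.22, adjusted p = 0.000381) with LPS in engrafted cells and by 0.70 (SE 0.22, adjusted p = 0.0139) in host microglia. The rise in host microglia was 0.56 (adjusted p = 0.064) without the host library of mouse 6, the lowest of its group. The difference between these responses was -1.81 (SE 0.30, adjusted p = 0.00031) and passed in each of the 16 fits without 1 library.

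Sgsh encodes sulfamidase, a heparan sulfate enzyme lost in the Sanfilippo syndrome (type A), and lies at chr11:119204803-119216824 of mm9 on the minus strand. Without LPS it measured 131, 92.7, 95.03 and 97.2 CPM in the engrafted cells and 39.5, 35.9, 38.3 and 36.8 CPM in host microglia. All engrafted libraries lay above all host libraries (log2 fold change 1.54, SE 0.17, adjusted p = 7.99e-08). After LPS it measured 23.5, 19.5, 33.8 and 25.2 CPM in the engrafted cells and 2.29, 9.97, 13.3 and 13.9 CPM in host microglia. The populations still did not overlap, at a log2 fold change of 1.40 (SE 0.40, adjusted p = 0.0176), but the host libraries held between 2 and 11 reads. Without the engrafted library of mouse 3 the value was 1.23 (adjusted p = 0.0678), and without the host library of mouse 1, the one with 2 reads, it was 1.06 (adjusted p = 0.0522). Sgsh fell with LPS by 2.08 in engrafted cells (adjusted p = 6.55e-07) and by 1.95 in host microglia (adjusted p = 3.04e-05) on the log2 scale. The interaction was -0.14 with an interval from -0.98 to 0.70.

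**Figure D4:**
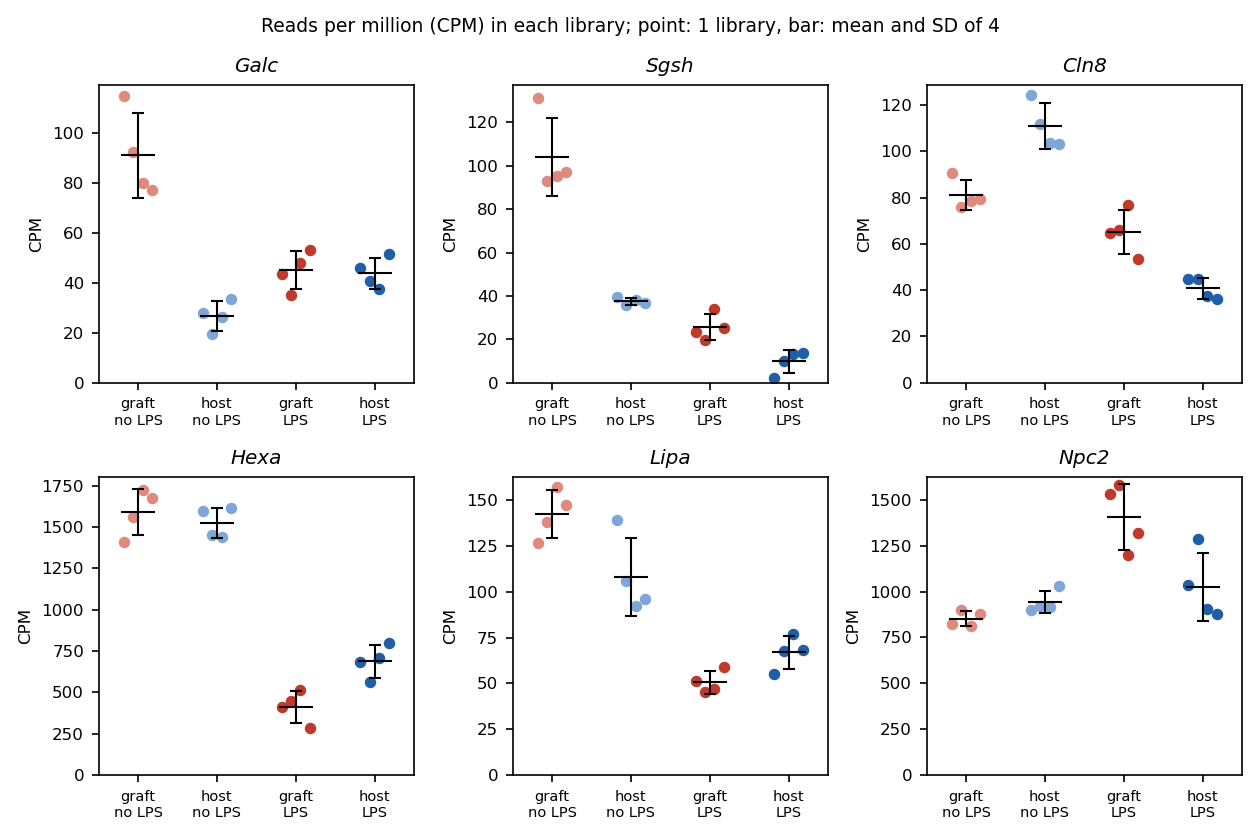
CPM of Galc, Sgsh, Cln8, Hexa, Lipa and Npc2 in each library of the 4 groups, with mean and SD of 4 libraries on axes that start at 0. Galc differs between the populations without LPS and meets at about 44 CPM with LPS, Sgsh falls in both with engrafted cells on top, and Cln8 changes order.

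None of the other sphingolipid hydrolases was more than 2-fold apart between the populations in either condition. Hexa encodes the alpha subunit of beta-hexosaminidase A, lost in Tay-Sachs disease. It measured 1412, 1561, 1724 and 1676 CPM in the engrafted cells and 1597, 1452, 1440.5 and 1613 CPM in host microglia without LPS. These ranges overlapped at a log2 fold change of 0.12 (interval -0.10 to 0.34). With LPS the values were 411, 448, 514 and 283 CPM in the engrafted cells and 681, 560.3, 709 and 797 CPM in host microglia. The engrafted libraries now lay below the host libraries (log2 fold change -0.71, SE 0.21, adjusted p = 0.0244), with the lowest value in the shallow library of mouse 4. Hexa fell by 1.98 in engrafted cells and by 1.16 in host microglia, and the difference of -0.83 (SE 0.23) passed with an adjusted p of 0.0315. That call was lost in 9 of the 16 fits without 1 library (engrafted mice 1, 6, 7 and 8, and host mice 3, 4, 5, 6 and 7), with adjusted p up to 0.0887, and the lower level after LPS was lost in 5 of 8 (up to 0.0774, without the host library of mouse 4). The last 5 libraries were those of the engrafted cells of mice 1 and 2 and of the host microglia of mice 1, 3 and 4.

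Arsa encodes arylsulfatase A, lost in metachromatic leukodystrophy, a disorder treated with gene-corrected grafts. It averaged 56.8 ± 10.1 CPM (SD, n = 4) for engrafted cells and 59.9 ± 8.86 CPM in host microglia without LPS. The log2 fold change was -0.05, with an interval from -0.42 to 0.33. After LPS the means were 31.4 ± 10.9 and 35.4 ± 5.399 CPM, and the interval of the log2 fold change ran from -0.81 to 0.36, and both intervals lay inside 2-fold. Arsa fell with LPS by 0.97 in engrafted cells (adjusted p = 0.00717) and by 0.79 in host microglia (adjusted p = 0.00268).

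Asah1, the acid ceramidase of Farber disease, was higher in engrafted cells without LPS (421 ± 4.51 against 316 ± 35.8 CPM, log2 fold change 0.47, adjusted p = 0.00514). After LPS the value was 0.38 with an adjusted p of 0.182, and the falls with LPS of 0.49 and 0.40 lost their call without 6 of 8 engrafted libraries (mice 1, 2, 5, 6, 7 and 8, adjusted p up to 0.108) and without 5 of 8 host libraries (mice 1, 4, 6, 7 and 8, adjusted p up to 0.0831). Gla, the alpha-galactosidase of Fabry disease, rose by 1.43 in engrafted cells (adjusted p = 0.00157) and by 1.52 in host microglia (adjusted p = 2.17e-05), from 17.3 ± 4.38 and 14.2 ± 2.62 CPM to 50.9 ± 19.3 and 40.6 ± 4.39 CPM. It was the member with the largest rise in either population. Glb1 (beta-galactosidase) and Smpd1 (acid sphingomyelinase) did not pass between the populations and fell with LPS in both. The falls of Glb1, by 0.71 and 0.49, lost their call without 2 of 8 engrafted libraries (mice 1 and 8, adjusted p up to 0.0852) and 5 of 8 host libraries (mice 1, 2, 3, 5 and 8, adjusted p up to 0.0909). The fall of Smpd1 in engrafted cells was 0.63 on the log2 scale (adjusted p = 0.0537) without mouse 7, and without the engrafted library of mouse 4 its level after LPS passed as lower than in host microglia (-0.61, adjusted p = 0.0485). Glb1 overlaps Tmppe on the same strand, so reads of the pair may be split.

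Psap encodes prosaposin, the precursor of the saposins that present sphingolipids to their hydrolases, including galactosylceramidase and arylsulfatase A. Without LPS it was 1.60-fold higher in engrafted cells (641 ± 116 against 416 ± 135 CPM, adjusted p = 0.00357). The host libraries measured 356, 359, 332 and 619 CPM, so that of mouse 8 lay within the range of the engrafted ones. After LPS the log2 fold change was -0.01 with an interval from -0.57 to 0.54. Psap fell by 0.79 in engrafted cells (adjusted p = 0.00769) and the change in host microglia was -0.11 (adjusted p = 0.717), a difference that did not pass (-0.69, adjusted p = 0.268). Gm2a, the activator that hands gangliosides to the hexosaminidase, did not pass in any comparison.

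Among the 8 genes of glycosaminoglycan degradation, Naglu went against Sgsh although both act on heparan sulfate. Naglu (Sanfilippo syndrome type B) averaged 133 ± 24.5 CPM in the engrafted cells and 213 ± 30.6 CPM in host microglia without LPS (log2 fold change -0.61, adjusted p = 0.00396). After LPS it averaged 49.6 ± 20.9 and 93.5 ± 16.2 CPM (log2 fold change -0.88, adjusted p = 0.0228). That second call was lost without the engrafted library of mouse 1 or 2 or the host library of mouse 3 or 4, with adjusted p up to 0.094. Ids, the iduronate sulfatase of Hunter syndrome, passed only after LPS, at 21.3 ± 3.35 against 42.0 ± 6.68 CPM (log2 fold change -0.95, adjusted p = 0.0123), and its adjusted p was 0.0566 without the engrafted library of mouse 1. Its fall with LPS in engrafted cells had an adjusted p of 0.0523 without the same library. The interaction of Ids did not pass (adjusted p = 0.344).

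Idua, the iduronidase of Hurler syndrome and a target of transplantation, did not pass between the populations. Its means were 69.9 ± 7.33 and 69.1 ± 3.76 CPM without LPS and 31.5 ± 11.1 and 33.5 ± 6.71 CPM after LPS, with intervals from -0.25 to 0.40 and from -0.65 to 0.56. It fell with LPS by 1.17 and 1.06. Arsb, the arylsulfatase B of Maroteaux-Lamy syndrome, had the largest fall in engrafted cells, to 22.4% (adjusted p = 6.03e-08), and fell to 35.3% in host microglia (adjusted p = 1.05e-07). After LPS Arsb did not pass between the populations (-0.53, adjusted p = 0.101), but did without the engrafted library of mouse 2 (-0.74, adjusted p = 0.029), as did its interaction (-0.87, adjusted p = 0.0423). Naglu fell by 1.46 and 1.20. Gusb (beta-glucuronidase, Sly syndrome) did not pass in the 5 comparisons. After LPS its log2 fold change was -0.51 (adjusted p = 0.0659), and with the mouse as a block -0.50 (adjusted p = 0.0493). Without the engrafted library of mouse 4 it also passed (-0.51, adjusted p = 0.0435), and its change with LPS in host microglia of 0.36 (adjusted p = 0.0556) passed without the host library of mouse 2 or 7 (adjusted p down to 0.0282). Hgsnat and Galns did not pass in any comparison. Without the host library of mouse 1 the change of Hgsnat in host microglia was 0.69 (adjusted p = 0.019), and Galns held 3 reads in 1 engrafted library.

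For glycoprotein degradation, Man2b1 encodes the lysosomal alpha-mannosidase. It was lower in engrafted cells without LPS, at 855 ± 80.0 against 1305 ± 129 CPM (log2 fold change -0.55, adjusted p = 0.000445). After LPS it was lower again, at 411 ± 53.2 against 784 ± 38.7 CPM (log2 fold change -0.91, adjusted p = 0.00157). No engrafted library overlapped a host library in either condition. Man2b1 fell with LPS by 1.09 and 0.75, with an interaction of -0.35 that did not pass (adjusted p = 0.366). Fuca1 (alpha-fucosidase) fell by 0.75 and 0.57, and Aga (aspartylglucosaminidase) passed as lower with LPS in engrafted cells only. Without the engrafted library of mouse 4, Aga also passed as lower than in host microglia after LPS (-0.70, adjusted p = 0.0347). Neu1, the lysosomal sialidase, rose by 0.60 in engrafted cells (adjusted p = 0.0115) and by 0.57 in host microglia (adjusted p = 0.00838). The first call was lost without the engrafted library of mouse 2 (adjusted p = 0.0514) and the second without the host control library of mouse 6 (adjusted p = 0.0521). Manba did not pass in any comparison.

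Lipa encodes the lysosomal acid lipase, lost in Wolman disease. Without LPS it measured 127, 138, 157 and 148 CPM in the engrafted cells and 139, 106, 92.5 and 96.0 CPM in host microglia. The host library of mouse 5 lay within the range of the engrafted cells, and the log2 fold change of 0.46 (SE 0.15) passed with an adjusted p of 0.0217. After LPS it measured 51.5, 45.1, 46.8 and 58.9 CPM in the engrafted cells and 55.0, 67.8, 77.3 and 68.2 CPM in host microglia, at a log2 fold change of -0.41 (adjusted p = 0.204). Lipa fell by 1.55 in engrafted cells and by 0.69 in host microglia. The difference of -0.87 (SE 0.25, adjusted p = 0.0368) did not pass with the mouse as a block (-0.86, adjusted p = 0.0529) or in 11 of 16 fits without 1 library (engrafted mice 1, 2, 3, 6, 7 and 8, and host mice 3, 4, 6, 7 and 8, adjusted p up to 0.0939). The higher level without LPS was lost in 5 of 8 such fits, without the engrafted library of mouse 7 or 8 or the host library of mouse 6, 7 or 8 (adjusted p up to 0.0854). Gaa, the acid glucosidase of Pompe disease, did not pass between the populations and fell by 0.74 in engrafted cells (adjusted p = 0.00243).

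Npc1 and Npc2 encode the proteins that move cholesterol out of the lysosome. Neither passed between the populations. Npc2 measured 822, 897, 811 and 878 CPM in the engrafted cells and 897, 924, 914 and 1030.4 CPM in host microglia without LPS. The engrafted values lay just under the host values, at a log2 fold change of -0.09 (interval -0.31 to 0.13). After LPS, Npc2 measured 1530.2, 1582, 1201 and 1318 CPM in the engrafted cells and 1033, 1284, 905 and 875 CPM in host microglia (log2 fold change 0.48, adjusted p = 0.0931). With the mouse as a block that value was 0.49 (adjusted p = 0.0417), and without the host library of mouse 2 it was 0.60 (adjusted p = 0.0402). Npc2 rose by 0.69 with LPS in engrafted cells (adjusted p = 0.00295), and the interaction did not pass (0.57, adjusted p = 0.122).

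Of the genes of the neuronal ceroid lipofuscinoses, Tpp1 (tripeptidyl peptidase) was lower in engrafted cells without LPS (198 ± 16.4 against 321 ± 54.9 CPM, log2 fold change -0.64, adjusted p = 0.00146). After LPS it had -0.49 (adjusted p = 0.0786), and without the engrafted library of mouse 4 -0.54 (adjusted p = 0.0358). Ppt1 (palmitoyl-protein thioesterase) was lower after LPS (218 ± 41.4 against 358 ± 24.96 CPM, log2 fold change -0.69, adjusted p = 0.0187). That call was lost without the engrafted library of mouse 1 or 2 (adjusted p of 0.0503 and 0.0788). Without LPS Ppt1 had -0.39 (adjusted p = 0.0729), and with the mouse as a block -0.40 (adjusted p = 0.0345). It passed there without the engrafted library of mouse 5 or the host library of mouse 8 (adjusted p down to 0.0148).

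Cln8 encodes a membrane protein of the endoplasmic reticulum. It measured 90.7, 75.9, 78.6 and 79.2 CPM in the engrafted cells and 124, 112, 104 and 103 CPM in host microglia without LPS. Every engrafted library lay below every host library, and the log2 fold change of -0.37 had an adjusted p of 0.0516, or 0.0464 without the host library of mouse 8. With LPS the values were 64.9, 65.9, 76.8 and 53.3 CPM in the engrafted cells and 44.7, 44.9, 37.4 and 36.2 CPM in host microglia. The order was now the reverse, again without overlap (log2 fold change 0.71, SE 0.20, adjusted p = 0.02). That call was lost without the engrafted library of mouse 3 or the host library of mouse 3 or 4 (adjusted p up to 0.0653) and when libraries were scaled to their totals. Cln8 fell by 1.44 in host microglia (adjusted p = 1.1e-06) and changed by -0.34 in engrafted cells (adjusted p = 0.154). The difference of 1.08 (SE 0.23, adjusted p = 0.00426) passed in each of the 16 fits without 1 library. Cln3 and Mfsd8 did not pass in any comparison.

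The lysosomal transporters Ctns (cystine) and Mcoln1 (a cation channel) did not pass between the populations. Mcoln1 fell with LPS by 1.04 and 1.08, and Ctns fell by 1.03 in host microglia (adjusted p = 0.000203) with -0.54 in engrafted cells (adjusted p = 0.0763).

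The members closest between the populations without LPS were chosen by the farther bound of the interval, among genes with at least 20 CPM in every library. They were Npc2, Neu1, Hexa, Gusb and Cln3, whose farther bounds lay between 0.31 and 0.37 on the log2 scale. Neu1 measured 101, 108, 95.03 and 99.0 CPM in the engrafted cells and 108, 79.6, 111 and 110.3 CPM in host microglia. Gusb measured 259, 228, 238 and 243 CPM in the engrafted cells and 265, 251, 306 and 229 CPM in host microglia. Cln3 measured 183, 197, 161 and 151 CPM in the engrafted cells and 195, 170.0, 152 and 234 CPM in host microglia. The populations overlapped for each of these last 3 genes, and for Hexa.

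After LPS only Hexa of these 5 genes, given before, passed between the populations. Neu1 measured 164, 194, 131 and 132 CPM in the engrafted cells and 123, 174, 149.7 and 166 CPM in host microglia, which still overlapped. Gusb measured 263, 221, 219.9 and 233 CPM in engrafted cells, below the 321, 320.1, 321 and 395 CPM of host microglia. Cln3 measured 202, 207, 194 and 247 CPM in engrafted cells, above the 174, 173, 126 and 152 CPM of host microglia, at a log2 fold change of 0.46 (adjusted p = 0.109).

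Among further storage disease genes, Ctsf and Arsg passed as lower in engrafted cells at more than 2-fold, both without LPS and after LPS. Ctsd, the gene of cathepsin D, passed as lower after LPS by less than 2-fold (log2 fold change -0.55, adjusted p = 0.0379). That call was lost in 6 of 8 fits without 1 library (engrafted mice 1, 3 and 4 and host mice 1, 3 and 4, adjusted p up to 0.114). Ctsk, Hyal1 and Kctd7 had too few reads to be tested.

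Ctsf, a cathepsin lost in a neuronal ceroid lipofuscinosis, measured 143, 121, 115 and 124 CPM in the engrafted cells and 343, 384, 373 and 358 CPM in host microglia without LPS (log2 fold change -1.47, SE 0.13, adjusted p = 2.93e-09). After LPS it measured 40.3, 73.2, 62.5 and 39.2 CPM in the engrafted cells and 147, 147, 164 and 191 CPM in host microglia (-1.54, adjusted p = 3.95e-05). Arsg, a further heparan sulfate sulfatase, measured 16.1, 3.37, 8.19 and 14.4 CPM in the engrafted cells and 51.2, 47.6, 61.4 and 65.4 CPM in host microglia without LPS. The engrafted values were low but all below the host values (-2.28, SE 0.32, adjusted p = 6.98e-07), with 2 reads in the lowest library. After LPS Arsg measured 6.71, 9.76, 14.3 and 14.0 CPM in the engrafted cells and 35.6, 27.9, 39.8 and 45.9 CPM in host microglia (-1.76, adjusted p = 0.00062). For Grn, the progranulin gene, and Ctsa, the protective protein, the interval lay inside 2-fold in both conditions.

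**Figure D5:**
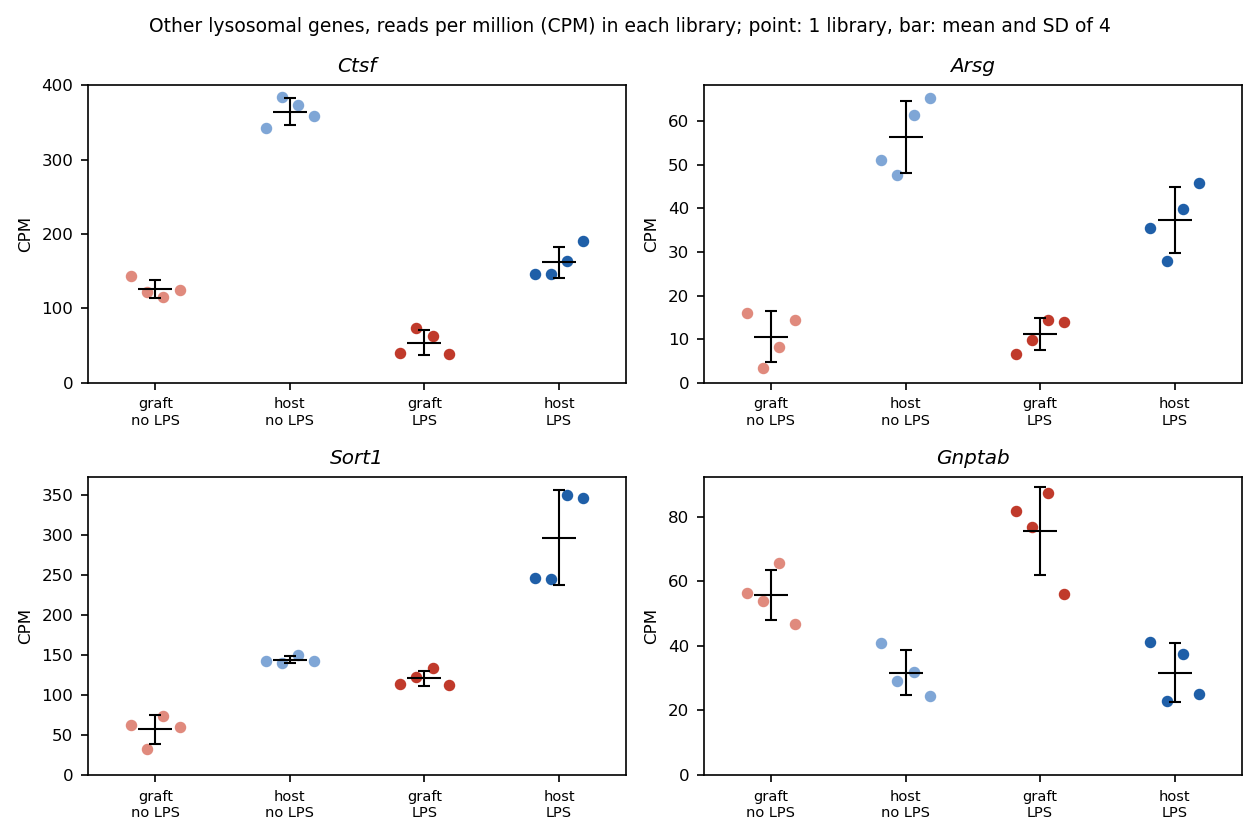
CPM of Ctsf, Arsg, Sort1 and Gnptab in each library of the 4 groups, with mean and SD of 4 libraries on axes that start at 0. Ctsf, Arsg and Sort1 are lower in engrafted cells than in host microglia in both conditions, Gnptab is higher, and Sort1 is higher with LPS in both populations.

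Delivery of an enzyme also needs genes that mature and sort it, and 7 of 8 listed genes of this kind were tested (Igf2r had too few reads). Gnptab encodes the phosphotransferase subunits that make the mannose 6-phosphate tag. It measured 56.4, 53.9, 65.5 and 46.8 CPM in the engrafted cells and 41.0, 29.1, 31.9 and 24.5 CPM in host microglia without LPS (log2 fold change 0.90, SE 0.21, adjusted p = 0.00167). With LPS the values were 81.7, 76.9, 87.2 and 56.1 CPM in the engrafted cells and 41.3, 22.9, 37.4 and 25.04 CPM in host microglia. The populations did not overlap in either condition, and the second difference was more than 2-fold (1.30, SE 0.24, adjusted p = 0.000587). Sort1 encodes sortilin, a sorting receptor that carries prosaposin and other cargo to lysosomes. It measured 62.5, 32.0, 73.7 and 59.4 CPM in the engrafted cells and 142, 139.9, 149.9 and 143 CPM in host microglia without LPS (-1.27, SE 0.17, adjusted p = 1.52e-06). After LPS it measured 114, 122, 134 and 112 CPM in the engrafted cells and 245, 244, 350.1 and 346 CPM in host microglia (-1.27, adjusted p = 0.000156). Sort1 rose by 1.04 and 1.03 with LPS, and M6pr, a mannose 6-phosphate receptor, by 0.74 and 0.85. Scarb2, which encodes a lysosomal membrane protein, fell by 0.64 in engrafted cells (adjusted p = 0.00425) and by 0.56 in host microglia (adjusted p = 0.00361). Gnptg and Nagpa, which serve the same tag, passed as lower in engrafted cells after LPS (adjusted p of 0.0324 and 0.049). Each of these calls was lost in 6 of 8 fits without 1 library, that of Gnptg without mouse 1, 2 or 3 of either population (adjusted p up to 0.133) and that of Nagpa without engrafted mouse 1, 2 or 3 or host mouse 1, 3 or 4 (up to 0.171). Sumf1, which activates sulfatases, did not pass in any comparison.

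Of the transcription factors named for lysosomal genes, Tfeb fell with LPS by 1.40 in engrafted cells (adjusted p = 7.04e-05) and by 1.40 in host microglia (adjusted p = 0.000352). Tfe3 fell by 0.58 and 0.62, and the first call was lost without the engrafted library of mouse 1, 6 or 7 (adjusted p up to 0.0801). Neither Tfeb nor Tfe3 passed between the populations. Mitf fell by 1.03 in host microglia (adjusted p = 0.0277), a call lost under 5 of 14 alternatives. In engrafted cells the Mitf change of -1.02 did not pass (adjusted p = 0.0726), and Tfec had too few reads to be tested. Of the 8 members whose promoter window held TCACGTG, 5 fell with LPS in both populations (Arsa, Glb1, Naglu, Sgsh and Mcoln1), Gaa fell in engrafted cells, Gla rose in both and Cln3 did not pass. Of the 19 members with a window and no match, 7 fell in both populations and 12 in at least 1. Of all genes tested, 19.3% fell in engrafted cells and 20.5% in host microglia, and 12.4% of those tested in both fell in both. Whether the falls go with the motif was not tested.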

How the data were processed

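RNA was sequenced from 16 sorted populations of 8 mice (4 groups of 4 libraries) with 3'-end libraries derived from MARS-seq. Per the labels and the methods, the authors mapped reads to NCBI37 (mm9) with HISAT (0.1.5 in the submitters' processing notes), kept unique mappings and counted exon reads with HOMER, using strand. The deposited values are raw read counts, 1 row per RefSeq gene, with replicates not pooled.

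Counts were tested with edgeR 4.0.16 (R 4.3.3) after filterByExpr (minimum count 10, minimum total 15) and TMM scaling, with the quasi-likelihood test and Benjamini-Hochberg adjustment over all genes tested. Each comparison used its own 8 libraries, and the interaction used 16. A gene passed at an adjusted p below 0.05 and was called when it was also more than 2-fold apart. CPM values use the TMM sizes of all 16 libraries. Intervals cover 95%. Host and engrafted cells of the same number came from the same mouse, and the main fit ignores this. The correlation of their deviations from the group means ranged from -0.0324 to 0.209. Depth limits the rarest genes, for which 3 reads were taken as the floor. The script code was tested on simulated data with known changes.

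The genes and lists were chosen with earlier results of these data known. Values per library are given for members called between the populations, for those with a passing interaction, for the 5 members closest between the populations and for called genes of the other lists, some of whose genes are not reported here. Psap host values were added after they were seen. Alternatives were RLE factors, library totals, DESeq2 1.42.0, limma 3.58.1 (limma-trend), other filters, 1 fit over all libraries, the mouse as a block, and leaving out each library.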

Additional observations from a re-analysis of the deposited data

Results flagged for a closer look

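Of 152 combinations of a gene and a group, 14 had 1 library set apart from the other 3 by Dixon's criterion at 95%, where chance flags about 1 in 20. Among engrafted control libraries, mouse 5 was high for Sgsh (131 CPM, others up to 97.2). Among host control libraries, mouse 5 was low for Asah1 (262 CPM) and high for Manba (24.9 CPM), mouse 8 was high for Psap (619 CPM, others up to 359), and mouse 6 was low for Neu1 (79.6 CPM).

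After LPS, the engrafted library of mouse 4, the shallowest of all, was high for Smpd1 (56.1 CPM) and Aga (42.1 CPM). The engrafted library of mouse 3 was high for Naglu (80.7 CPM, others up to 42.1), and that of mouse 1 was low for Ctns (26.8 CPM). The host library of mouse 3 was high for Idua (43.5 CPM) and low for Mfsd8 (18.1 CPM) and Ctns (24.1 CPM). The host library of mouse 4 was high for Gusb (395 CPM, others up to 321), and that of mouse 2 was high for Ppt1 (395 CPM, others up to 351).

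The response to LPS differed between the populations, by the interaction test of edgeR, for Galc (-1.81), Hexa (-0.83), Lipa (-0.87) and Cln8 (1.08). Of these, Galc and Cln8 passed under each alternative that was run.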

How the results depend on the processing

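No result changed direction under the alternatives run where it had passed. Scaling to library totals gave 7 members lower in engrafted cells without LPS (3 in the main analysis), and after LPS 10 lower (5), 3 of them more than 2-fold (0), and 1 higher (2). Requiring at least 10 reads in every library left 141 of the 165 values tested for members over all comparisons. Those removed included Sgsh and Ids after LPS and Gla in engrafted cells. This left 1 member higher after LPS, 0 more than 2-fold (edgeR), and 0 raised more than 2-fold by LPS in engrafted cells. Fitting all 16 libraries together gave 9 lower after LPS. DESeq2 gave 2 members with a higher response in engrafted cells (1). The cause of the other changes was not tested.

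Leaving out 1 library gave 3 to 5 lower members without LPS, and after LPS 0 to 3 higher, 0 to 1 higher by more than 2-fold, 1 to 9 lower and 0 to 1 lower by more than 2-fold. It gave 1 to 4 raised by LPS in host microglia, and 1 to 2 higher and 1 to 3 lower responses. The members lowered by LPS numbered 15 to 19 in engrafted cells (18 in the main analysis) and 14 to 15 in host microglia (16). With the mouse as a replicate block, Gusb (-0.50) and Npc2 (0.49) passed after LPS, Ppt1 (-0.40) passed without LPS and Lipa (-0.86) lost its interaction, and no other call of the members between the populations or in the interaction changed. LPS and control mice are different animals, so no block applies there. Genes at 2 to 11 reads in a library, such as Sgsh in host microglia after LPS, are limited by depth.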
